A study of Homo sapiens with 12 samples.

Results

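The snoRNA host lncRNA genes were the hg38 RefSeq lncRNA genes whose symbol is SNHG followed by digits, with GAS5, ZFAS1 and DANCR added. There were 32 of them among 18010 lncRNA genes and 58961 genes of all kinds with a usable position. They lay on 16 chromosomes and were 340 bp (SNHG25) to 595855 bp (SNHG14) long. RefSeq places 149 snoRNA genes inside 27 of them, 84 of these inside SNHG14 alone and 11 inside GAS5. The members without one were SNHG10, SNHG20, SNHG21, SNHG22 and SNHG27, of which all but SNHG27 held a scaRNA gene, a small RNA of the Cajal body.

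Small nucleolar RNAs guide ribose methylation (box C/D, SNORD genes) or pseudouridylation (box H/ACA, SNORA genes) of ribosomal and spliceosomal RNA. In human cells most are cut from introns, so a host transcript is made and spliced to release its snoRNA, and the spliced exons of many SNHG genes are then degraded by nonsense-mediated decay. Many hosts are transcribed strongly from promoters of the terminal oligopyrimidine kind, which they share with ribosomal protein genes. R-loops are structures that hold an RNA:DNA hybrid and a displaced DNA strand, and they are known to form near the starts of active genes.

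The study asked whether REXO4, an exonuclease of the DEDD family, and RNaseH1, which cuts the RNA strand of RNA:DNA hybrids, bind R-loops. U2OS cells, a human osteosarcoma line, carried a tet-on transgene for nuclease-dead REXO4-D386A or for nuclease-dead RNaseH1-D210N. They were grown without doxycycline or with 1 µg/ml of it for about 60 h, fixed, and precipitated with anti-Flag beads. Each line and condition had 2 ChIP libraries and 1 input library, 12 libraries in 8 groups. Both lines add a mutant protein to whatever the cells express themselves, and the labels give no clone number. The data analysed here were 2 peak lists in hg38 coordinates, with 1460 peaks for REXO4 and 54623 for RNaseH1. The sources do not say which libraries, or which doxycycline state, a list rests on, and peak names carry the label ChIPseq2 without saying whether that is a replicate. There is thus no replicate error for any value below and no test across replicates was possible. Intervals of folds cover counting error only.

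Promoter sequences are shown first for the members on which the results turn, from 250 bases before the RefSeq start (GRCh38.p14) to 50 after it, written along the transcribed strand. SNHG30 (chr17:35567864-35568163, plus strand) and SNHG33 (chr3:183447358-183447657, plus strand) had the highest RNaseH1 folds over this window. SNHG10 (chr14:95534823-95535122, minus strand) was the 1 member with a REXO4 peak over it. SNHG18 (chr5:9545950-9546249, plus strand) had no peak of either list. GAS5 (chr1:173868996-173869295, minus strand) was added after its values were seen, because its peak began past the window. Capitals mark matches on either strand to CACGTG (an E-box), to the CCAAT box, to the TATAAA box or to GGGCGG (a GC box).
SNHG30: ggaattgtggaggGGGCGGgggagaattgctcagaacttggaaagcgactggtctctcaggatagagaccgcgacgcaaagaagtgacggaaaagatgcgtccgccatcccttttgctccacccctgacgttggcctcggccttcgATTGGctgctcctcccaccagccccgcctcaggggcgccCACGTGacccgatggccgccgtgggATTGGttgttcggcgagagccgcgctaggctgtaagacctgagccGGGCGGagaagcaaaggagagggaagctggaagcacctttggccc
SNHG33: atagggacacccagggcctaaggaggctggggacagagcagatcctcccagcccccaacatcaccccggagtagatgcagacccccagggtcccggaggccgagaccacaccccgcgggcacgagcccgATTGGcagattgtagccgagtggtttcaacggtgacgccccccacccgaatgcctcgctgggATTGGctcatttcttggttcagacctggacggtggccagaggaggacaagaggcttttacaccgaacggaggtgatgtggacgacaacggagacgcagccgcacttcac
GAS5: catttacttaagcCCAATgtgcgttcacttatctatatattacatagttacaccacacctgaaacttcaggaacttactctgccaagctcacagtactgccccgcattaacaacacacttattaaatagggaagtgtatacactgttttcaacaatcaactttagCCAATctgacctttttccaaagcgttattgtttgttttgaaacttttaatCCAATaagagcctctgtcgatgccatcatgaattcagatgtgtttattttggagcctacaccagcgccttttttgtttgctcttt
SNHG10: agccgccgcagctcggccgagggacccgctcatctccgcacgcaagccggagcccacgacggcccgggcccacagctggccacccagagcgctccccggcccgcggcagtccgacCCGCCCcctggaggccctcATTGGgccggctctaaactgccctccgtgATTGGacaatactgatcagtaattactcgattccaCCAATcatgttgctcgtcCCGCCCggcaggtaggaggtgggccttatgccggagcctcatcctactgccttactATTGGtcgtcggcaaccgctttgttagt
SNHG18: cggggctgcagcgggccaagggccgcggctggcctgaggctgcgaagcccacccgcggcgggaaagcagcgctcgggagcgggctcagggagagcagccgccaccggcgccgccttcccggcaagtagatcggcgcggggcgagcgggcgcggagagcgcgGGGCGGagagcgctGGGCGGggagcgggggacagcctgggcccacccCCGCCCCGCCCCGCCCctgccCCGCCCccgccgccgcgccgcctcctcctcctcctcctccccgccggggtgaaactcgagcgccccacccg

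Of these promoters, that of SNHG18 was the richest in G and C (81.3%) and held 6 matches to GGGCGG, yet lay under no peak. The window of GAS5 was 37.7% G and C and held 3 matches to CCAAT and none to GGGCGG. SNHG30 held 2 matches each to CCAAT and GGGCGG and 1 to CACGTG, SNHG33 held 2 to CCAAT, and SNHG10 held 4 to CCAAT and 2 to GGGCGG.

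RNaseH1 peaks lay at nearly all of these genes. Over the gene and 1 kb around it, 29 of the 32 members (90.6%) had at least 1 RNaseH1 peak by an overlap of 1 bp or more, against 37.4% of all lncRNA genes and 78.5% of protein-coding genes. Among the 523 protein-coding genes that hold a snoRNA the share was 94.5%, so a high share was not particular to the members. Among the 22 members of 1 to 12 kb, 20 had one, against 32.9% of lncRNA genes in that range of lengths. The members held 47 RNaseH1 peaks in all: 16 members had 1 peak, 9 had 2, 3 had 3 and SNHG29 had 4. The 3 members without a peak were SNHG18, SNHG21 and SNHG27. SNHG21 and SNHG18 had their nearest RNaseH1 peak 1107 and 1380 bp from the gene, and SNHG27 had it 11337 bp away. These shares were not tested, and the files hold no measure of transcription, so members and other lncRNA genes could not be compared at like expression.

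The peaks sat mostly at the gene boundaries, and above all at the start. A boundary peak was one that touched the 1 kb on either side of the first or last base of the gene, and 39 of the 47 RNaseH1 peaks were of this kind, at 28 of the 32 members (87.5%, against 27.2% of all lncRNA genes). This count is partly fixed by length. In members no longer than SNHG10 (1961 bp), the boundary windows cover the whole counted span, so every peak there is a boundary peak. A start site and strand were listed in the promoter table for 28 members, and not for SNHG6, SNHG9, SNHG15 and SNHG25. Within 1 kb of the start, 24 of these 28 (85.7%) had an RNaseH1 peak, against 28.3% of lncRNA genes and 66.6% of protein-coding genes with a listed start. Within 1 kb of the gene's 3′ end, 6 of 28 (21.4%) had one, against 8.61% of lncRNA genes. All 6 were among the 18 members with a protein-coding gene end within 1 kb (33.3%, against 18.6% of lncRNA genes with such a neighbour). Of the 10 members without one, 0 had a peak there, against 5.98% of such lncRNA genes. In SNHG8, a gene of 1062 bp, a single peak met both windows. The other 5 members, SNHG1, SNHG3, SNHG7, SNHG19 and SNHG22, had a separate peak that met the end window and not the start window. Of these 5 peaks, those by SNHG1, SNHG3, SNHG7 and SNHG19 had summits outside the gene, and that in SNHG22 lay inside it.

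**Figure D1:**
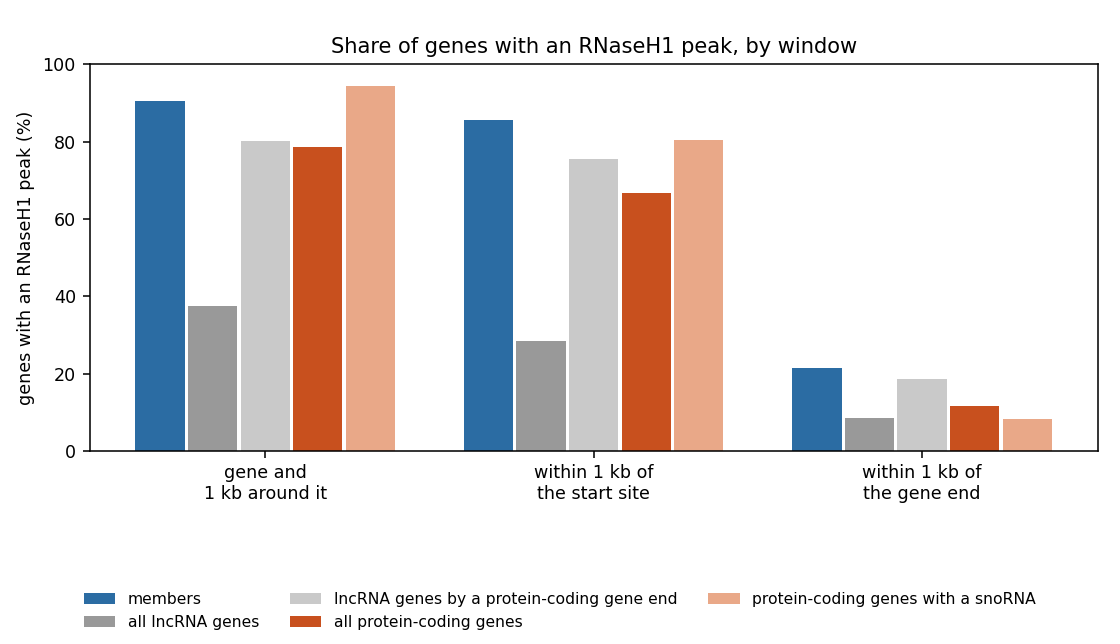
Share of genes with an RNaseH1 peak (%, vertical axis) in 3 windows, for the members and 4 wider gene classes (bars). The members' bar stands at 90.6% over the gene and 1 kb around it, 85.7% at the start and 21.4% at the gene end; start and end windows use the 28 members with a listed start.

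Many of these starts lie next to another gene. Of the 28 members with a listed start, 14 had an end of a protein-coding gene within 1 kb of that start. A start peak was present in 12 of these 14 and in 12 of the 14 others. Counting both ends of the member, 18 of the 28 had an end of a protein-coding gene within 1 kb. Of these 18, 16 had a start peak, against 75.4% of lncRNA genes with such a neighbour. Of the 10 members without such a neighbour, 8 had a start peak, against 16% of lncRNA genes without one. Those 10 included DANCR, SNHG5, SNHG11, SNHG26, SNHG32 and SNHG33. At protein-coding genes that hold a snoRNA, 80.4% had a start peak. Of the 77 other lncRNA genes that hold a snoRNA and have a listed start, 37.7% had a start peak. Over the gene and 1 kb around it, 61.7% of all 115 such genes had a peak. Where a protein-coding gene ends or begins within 1 kb of the start, the peak cannot be given to the member or to its neighbour: GAS5 with ZBTB37, ZFAS1 with ZNFX1, SNHG1 with SLC3A2, SNHG4 with MATR3, SNHG10 with GLRX5 and SNHG31 with BARD1 are such cases.

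At the start, the summit lay mostly just past the listed start site. For the peak of highest fold within 1 kb of the start, the summit was a median of 170 bp past the start over the 24 members (interquartile range 58.2 to 255). It was 0 to 400 bp past the start in 17 of 24 members (70.8%), against 54.7% of 10544 protein-coding genes and 25.2% of 3223 other lncRNA genes with a start peak. In 5 members it lay upstream, at -71 bp (SNHG30), -111 bp (SNHG16), -122 bp (SNHG1), -635 bp (ZFAS1) and -755 bp (SNHG31). The median summit was at 110 bp for protein-coding genes and at -70 bp for other lncRNA genes. ZFAS1 is transcribed from the opposite strand beside the start of ZNFX1, and its peak reached from -1113 bp to 17 bp past the listed start. That start lies 464 bp inside the RefSeq gene, and from the gene's first base the summit was at -171 bp. The listed start of SNHG12 likewise lies 1110 bp inside its gene, and in the other 26 members the listed start is the gene's first base.

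**Figure D2:**
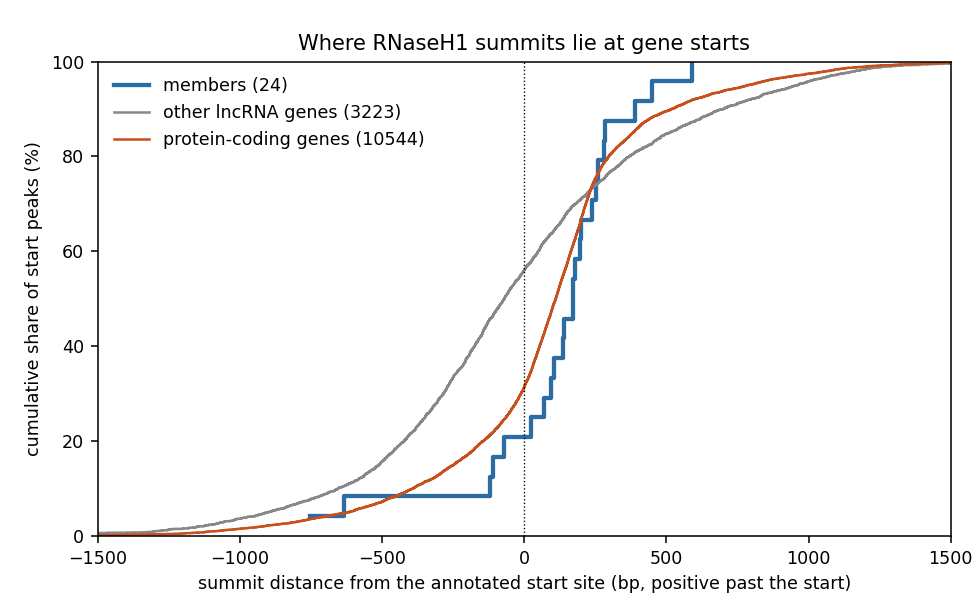
Cumulative share (%, vertical axis) of genes by the distance of the strongest start summit from the annotated start (bp, horizontal axis, positive past the start). The members (24, thick line) climb steeply just past 0, with a median at 170 bp, while other lncRNA genes (3223) have theirs at -70 bp and protein-coding genes (10544) at 110 bp.

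Peaks at the snoRNAs themselves were few. Of the 149 snoRNA genes inside members, 5 (3.36%) were touched by an RNaseH1 peak, against 1.76% of all 1193 snoRNA genes, and 0 by a REXO4 peak. Without the 84 snoRNAs of SNHG14, 5 of 65 were touched (7.69%). Each of the 5 peaks was also a boundary peak, and the count of peaks over a snoRNA and away from both gene ends was 0. None of the 5 had its summit within the snoRNA. Of the 20 snoRNAs within 1 kb of an end of their host, 4 lay under a peak (20.0%). Such snoRNAs lay under one in 5 of 51 cases in protein-coding hosts (9.8%) and in 0 of 5 in other lncRNA hosts. Of the members' 129 snoRNAs farther inside, 1 did (0.775%), or 1 of 45 without SNHG14 (2.22%). Of the 555 snoRNAs that lie over 1 kb inside protein-coding genes, 3 did (0.541%).

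The 5 cases are short or compact hosts, or the wide peak of GAS5. SNHG9 (509 bp, holding SNORA78) and SNHG25 (340 bp, holding SNORD104) lay wholly under a single peak each. The summit of the SNHG9 peak lies outside that gene and inside RPS2, so the peak cannot be given to SNHG9 alone. The start peak of SNHG19 (577 bp) ended 338 bp past the start and covered SNORD60, which begins at 253 bp. In SNHG1, host of 9 snoRNAs including the U22 gene SNORD22, the start peak ended at 270 bp and met the first bases of SNORD25, which begins at 254 bp, while the other 8 lay clear of it. In GAS5 the peak ran from 125 to 1923 bp past the start and took in SNORD74, the first of its 11 snoRNAs, while the other 10 lay 184 to 2900 bp beyond it.

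In most other hosts the peak stopped short of the first small RNA. All 24 members with a start peak have a snoRNA or scaRNA at or past the start. In 20 of them the start peak of highest fold ended before it, by a median of 610 bp (53 to 36639). The closest were SNHG8, whose peak ended 53 bp before SNORA24, SNHG32, 61 bp before SNORD48, and SNHG29, 67 bp before SNORD49B. In DANCR the peak ended 170 bp before SNORA26. SNHG17 and SNHG30 had a second start peak farther downstream, which ended 454 and 4439 bp before their first small RNA. In 23 of the 24 the summit lay before the first small RNA, the exception being SNHG22, whose RefSeq start is also that of SCARNA17. The start peak of SNHG22 reached 561 bp past the start and lay over this scaRNA, the 1 of the members' 4 scaRNA genes under an RNaseH1 peak. A gap shorter than a sonicated fragment cannot be told from contact, since peak edges depend on fragment length.

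**Figure D3:**
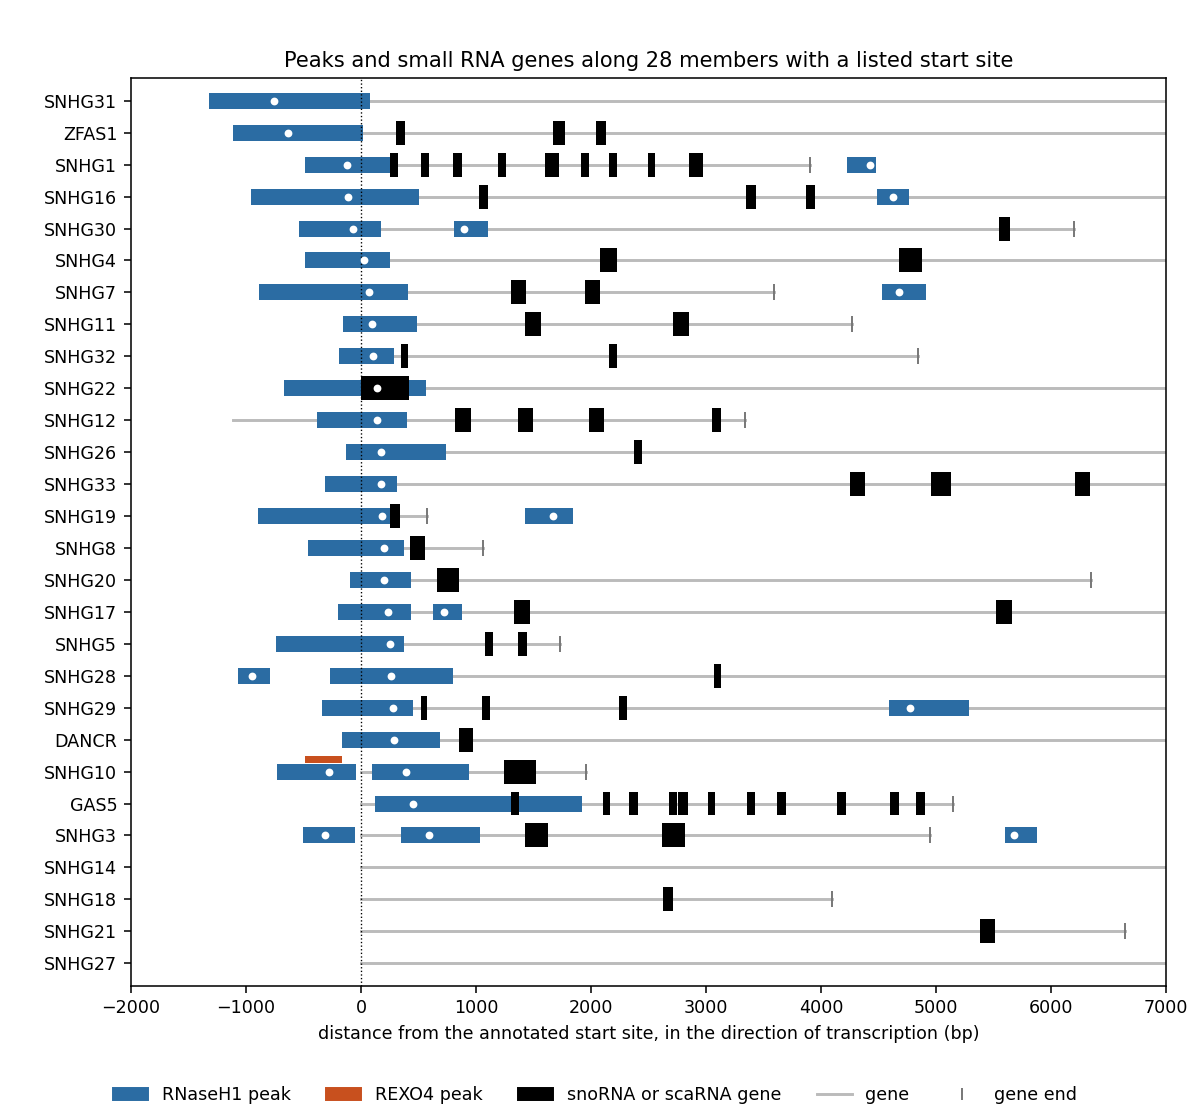
Peaks (blue RNaseH1, orange REXO4, white dots RNaseH1 summits) and small RNA genes (black) along the 28 members with a listed start, by distance from that start in the direction of transcription (bp, horizontal axis), in order of the strongest start summit. Peaks gather around 0 and end before the first small RNA in 20 of 24 members; longer genes run off the axis, and the 84 snoRNAs of SNHG14 lie outside it.

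Measured as covered sequence, the start windows stood far apart from the rest. Over the 28 members, 41.0% of the 56 kb within 1 kb of a start lay under RNaseH1 peaks. For the 53.3 kb within 1 kb of a gene end the share was 1.81%, for the 11.8 kb of snoRNA sequence 0.610%, and for the remaining 928 kb 0.463%. Without SNHG14, which holds most of the remaining sequence, these shares were 42.5%, 1.88%, 1.53% and 1.03%. In protein-coding genes with a snoRNA they were 39.7%, 1.57%, 0.727% and 0.506%, the same order. In the 77 other lncRNA genes that hold a snoRNA and have a listed start they were 15.9%, 2.0%, 0.0% and 0.565%. There the snoRNA sequence came last. The members' share for snoRNA sequence came from 72 bp, all of it in SNORD74 under the GAS5 peak. Sequence that belonged to several classes was counted as start first, then end, then snoRNA.

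SNHG14 went against this pattern. It is the long imprinted transcript of chromosome 15 that starts at the SNRPN locus, runs antisense over UBE3A and hosts the SNORD116 and SNORD115 arrays, whose loss is linked to Prader-Willi syndrome. It had no RNaseH1 peak within 1 kb of either gene end. Of its 30 SNORD116 and 48 SNORD115 genes, 0 lay under an RNaseH1 peak, and the nearest peak was 474 bp away or more (median 41900 bp). Its 3 RNaseH1 peaks lay 131474, 404799 and 541960 bp past the start with folds of 2.17 (95% interval 1.34 to 3.37), 3.12 (1.80 to 5.09) and 3.06 (1.73 to 5.08). The first has its summit inside SNRPN and SNURF and the third inside UBE3A, and they rested on 13 to 18 fragments each. These array genes are near-identical copies, so reads that map to several of them may have been placed or dropped in ways not given in the sources used here.

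By fold the members' peaks lay somewhat below the middle of the RNaseH1 list, while the fragments behind their start peaks were many. Of their 47 peaks, 16 had a fold above the list's median of 3.07. The authors' fold enrichment, the fragments at the summit over the expected pileup with 1 added to each, reached a median of 3.02 in the highest peak of each of the 29 members (interquartile range 2.70 to 3.24). The same measure was 3.30 over 6729 lncRNA genes and 3.46 over 15593 protein-coding genes with a peak. It is a maximum over all peaks of a gene, and genes differ in how many they hold. For the strongest peak at the start, the median fold was 3.02 in members, 3.17 in other lncRNA genes and 3.13 in protein-coding genes. In 24 members the counting interval of the highest fold held the list's median, in 2 it lay above and in 3 below. The 24 start peaks rested on a median of 105 fragments against an expected 35.4, where the whole list had 23 against 7.14. The medians were 86 against 26.2 at protein-coding starts and 72 against 20.8 at starts of other lncRNA genes. The median -log10 q of the members' start peaks was 18.6, against 4.46 for the list and 16.1 at protein-coding starts. Their median width was 838 bp, against 365 bp for the list and 817 bp at protein-coding starts. The expected pileup was thus high at these starts as well.

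SNHG30 and GAS5 stood at the top. SNHG30 had a fold of 4.85 (95% interval 3.83 to 6.05, 76 fragments against 14.9 expected) in a peak at chr17:35567574-35568291, at percentile 96.5 of the list. GAS5, a growth-arrest transcript whose spliced RNA can bind the glucocorticoid receptor, had 4.71 (3.89 to 5.65, 113 fragments) at chr1:173867122-173868920, the widest peak of the group at 1799 bp. These intervals overlap and those 2 members cannot be ranked. SNHG33 followed with 3.95 (3.05 to 5.02), SNHG8 with 3.70 (2.99 to 4.52), SNHG19 with 3.60 (3.01 to 4.28), SNHG29 with 3.54 (2.47 to 4.93) and SNHG28 with 3.39 (2.71 to 4.19). SNHG6 had 3.24 (2.85 to 3.66), on 251 fragments, the most of any member, and the lowest q of the group, with a -log10 q of 51.3. SNHG4 had 3.22 (2.56 to 4.01) and SNHG22 3.16 (1.79 to 5.24). The folds of SNHG29 and SNHG22 came from peaks 4774 and 28889 bp past the start, inside LRRC75A and MYO5B, on 33 and 13 fragments. Their start peaks had folds of 3.33 and 2.54.

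At the bottom stood SNHG12, host of SNORA61, SNORA44, SNORA16A and SNORD99, with a highest fold of 1.86 (1.54 to 2.23) on 116 fragments against 61.9 expected. SNHG5, host of the U50 genes SNORD50A and SNORD50B, had 2.44 (1.99 to 2.95), and SNHG3, host of the U17 genes SNORA73A and SNORA73B, had 2.51 (1.63 to 3.72) by its end and 2.34 (1.92 to 2.83) past its start. ZFAS1 had 2.60 (2.11 to 3.17), SNHG1 2.70 (2.16 to 3.35), SNHG17 2.86 (2.34 to 3.46) and DANCR, named for its block on differentiation, 2.95 (2.45 to 3.51). The intervals of most neighbours in this order overlap, and only SNHG12, SNHG5 and SNHG25 (2.61, 2.24 to 3.02) lay wholly below the median of the list. SNHG17 had a second, narrow peak past the start at a fold of 1.99.

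**Figure D4:**
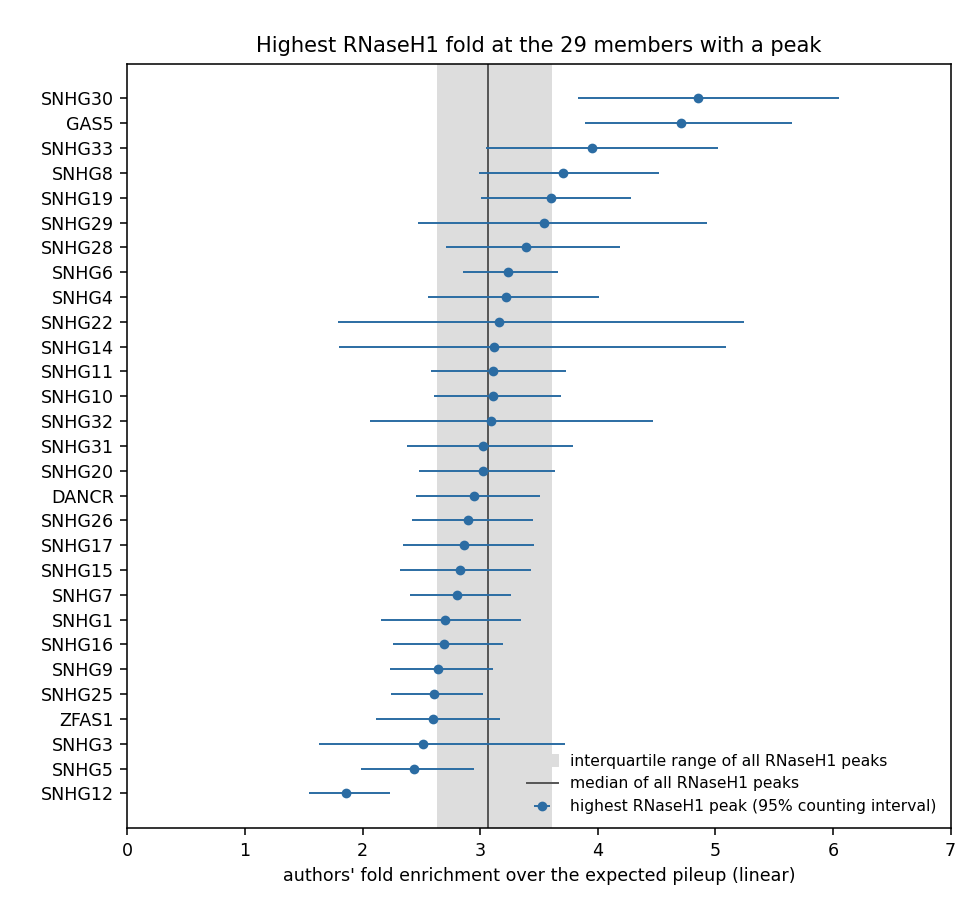
Highest RNaseH1 fold enrichment (horizontal axis, linear) at each of the 29 members with a peak (points), with 95% counting intervals (lines), the median of all RNaseH1 peaks (vertical line) and their interquartile range (grey band). SNHG30 (4.85) and GAS5 (4.71) stand above the band, SNHG12 (1.86) below it.

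Peaks deep inside members were narrow and shallow. The 8 RNaseH1 peaks away from both boundaries lay in SNHG14 (3), SNHG29 (3), SNHG16 (1) and SNHG22 (1). They had a median width of 259 bp and rested on a median of 17.5 fragments, where the 39 boundary peaks had 732 bp and 96.0 fragments. Their median fold of 3.09 was no lower than the 2.84 of the boundary peaks. The median -log10 q was 2.58 inside and 16.6 at boundaries. All 3 in SNHG29 had their summits inside LRRC75A as well, which overlaps it, and the 1 in SNHG22 lay in MYO5B.

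REXO4 peaks were few. Only SNHG10 and SNHG14 had one, 2 of 32 members (6.25%), against 1.67% of all lncRNA genes and 5.50% of protein-coding genes over the same window. At a boundary it was 1 of 32, against 1.26% of lncRNA genes. The peak at SNHG10, host of SCARNA13, lay at chr14:95535034-95535360, just upstream of the start, with its summit at -267 bp. Its fold was 1.75 (95% interval 1.48 to 2.05, 153 fragments against 87.0 expected) and its -log10 q was 6.10. It overlapped an RNaseH1 peak of fold 3.0 (2.49 to 3.59) whose summit was 9 bp away. A second RNaseH1 peak, with a fold of 3.11 (2.61 to 3.69), lay past the start with its summit at 389 bp and held no REXO4 peak. The REXO4 summit lies inside GLRX5, a mitochondrial iron-sulfur cluster gene whose end is within 1 kb, so it cannot be given to SNHG10 alone.

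The REXO4 peak in SNHG14 was of another kind. It lay 54841 bp past the start at chr15:24878264-24878564, inside SNRPN, over no snoRNA, with a fold of 6.29 (4.05 to 9.39) on 22 fragments against 2.65 expected. It overlapped no RNaseH1 peak, and the nearest RNaseH1 summit was 76633 bp away. Of all 1460 REXO4 peaks, 1044 (71.5%) overlapped an RNaseH1 peak, and of the 2 at members 1 did. Folds of the lists are not set against each other, and the REXO4 list is the shorter by far, so a member missing from it was not called there and is not shown to lack REXO4.

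Base composition at the starts was close to that of protein-coding promoters. Over the 300-base window, 23 of 28 members (82.1%) had an RNaseH1 peak, against 22.2% of lncRNA and 60.4% of protein-coding promoters. The members' windows had a median G and C content of 62.5% (37.7 to 81.3), against 50.0% for lncRNA and 62.7% for protein-coding promoters. Among all lncRNA promoters the median was 67.3% under an RNaseH1 peak and 46.3% elsewhere. The 5 member windows without a peak had 37.7% (GAS5), 51.7% (SNHG14), 59.7% (SNHG21), 68.3% (SNHG27) and 81.3% (SNHG18), so they spanned the whole range of the members. Of these, GAS5 had its peak farther downstream. In the 50 bases past the start, G exceeded C in 18 of 28 members (64.3%), against 52.0% of lncRNA and 58.6% of protein-coding promoters.

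Motif shares are given beside those of all promoters, with no test. On both strands, GGGCGG was in 20 of 28 windows (71.4%, against 44.6% of all 27303 promoters), CCAAT in 9 (32.1%, against 35.7%), TATAAA in 4 (14.3%, against 12%) and CACGTG in 2 (7.14%, against 7.44%). GGGCGG was in 58.5% of protein-coding promoters, 25.4% of lncRNA promoters and 70.3% of lncRNA promoters under an RNaseH1 peak. A run of 4 G or 4 C, GGGG on either strand, which can overlap GGGCGG runs, was in all 28 windows, against 89.0% of all promoters. On the transcribed strand alone, a C at the listed start followed by at least 4 bases that are C or T, as in terminal oligopyrimidine transcripts, was in 7 (25%, against 4.04%). Those 7 were SNHG4, SNHG5, SNHG12, SNHG18, SNHG19, SNHG32 and ZFAS1. Of these, 6 lay under an RNaseH1 peak, as did 23 of all 28 members (82.1%). The count of 7 depends on the listed base of the start and was chosen after the sequences were seen. A match in these letters is not a bound site.

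The genes of the proteins that assemble on snoRNAs had RNaseH1 peaks too, as did other host genes. Over the gene and 1 kb around it, all 20 of a list of snoRNP proteins and assembly factors had one, against 78.5% of protein-coding genes, with a median highest fold of 3.15. The highest were RUVBL1 (5.38, 4.14 to 6.87) and RUVBL2 (3.87), ATPases that help to assemble snoRNPs, COIL (4.56), the scaffold of Cajal bodies, and NUFIP1 (3.68), an assembly factor. The box C/D methyltransferase FBL had 3.53 and the pseudouridine synthase DKC1 2.39. All 13 nonsense-mediated decay and exon junction genes had a peak, such as CASC3 (6.03, 4.93 to 7.31), UPF3B (4.71), UPF1 (4.68) and SMG5 (4.36). All 41 of a list of other snoRNA host genes, mostly protein-coding, had one, against 94.5% of all protein-coding genes that hold a snoRNA. They were led by RPL27A (4.75), HSPA9 (4.69), SRCAP (4.67) and PPAN (3.90), with a median of 3.17. This list is not separate from the members, since the peak of RPS2 is that of SNHG9 and RCC1 shares peaks with SNHG3. NOP56, NOP58 and DKC1 stand both in this list and among the snoRNP proteins. REXO4 peaks were at 0 genes of these 3 lists, against 5.50% of all protein-coding genes over the same window.

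Some other well-known noncoding RNA genes reached higher RNaseH1 folds. Of 20 genes not named as snoRNA hosts, 19 had an RNaseH1 peak, against 37.4% of all lncRNA genes. Their median highest fold was 3.74, and MIR155HG had no peak. RMRP, the RNA of the mitochondrial RNA-processing ribonuclease, had 10.5 (8.72 to 12.6), MALAT1 9.48 (8.18 to 10.9), NEAT1 7.84 (6.69 to 9.14) and JPX 7.75 (6.31 to 9.42). Each of these 4 intervals lies above that of every member. The highest folds of NORAD (2.24), TUG1 (2.38), MIR17HG (2.38) and KCNQ1OT1 (2.66) lay below the members' median of 3.02. REXO4 peaks were at 2 of the 20 genes, LINC-PINT (2.09) and PVT1 (1.55), against 1.67% of all lncRNA genes. LINC-PINT and PVT1 also held 11 RNaseH1 peaks each. These lists were not tested against the members.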

How the data were processed

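Flag ChIP-seq peak lists of REXO4-D386A and RNaseH1-D210N were analysed. Per the submitters' processing notes, peaks came from MACS2 2.1.0.20150731 on hg38, and the notes also list HISAT2 2.2.1, Trim Galore 0.6.10, SAMtools 1.17, Cufflinks and deepTools 3.5.1. Control, pooling and threshold of the calls are not given in the sources. The highest q of a listed peak was 0.179 for REXO4 and 0.198 for RNaseH1. The deposited values of a peak were its fold enrichment, a ratio, and its −log10 p and −log10 q. The peak score deposited by the authors was not used.

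Of 59792 RefSeq genes, 831 were left out because they had no position on an assembled chromosome or stood out of order on it. Strand and start came from the RefSeq promoter table, and other members were used without them. In genes of either strand, TATAAA was most frequent between -40 and -25, so the sequences were read along the transcribed strand. Coordinates are counted from 1. A gene had a peak at an overlap of at least 1 bp with the gene and 1 kb around it. A boundary peak met the 1 kb on either side of a gene end, and a snoRNA peak overlapped a snoRNA gene inside the member.

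Fragments at the summit were recovered as the whole number, within 0.05, whose Poisson tail fits both p and fold, the latter with 1 added to fragments and expected pileup. This held for 1431 of 1460 REXO4 and 54536 of 54623 RNaseH1 peaks, all member peaks included. Folds have exact Poisson 95% intervals of the fragments with the expected pileup fixed. The recovery and the overlap search were tested on simulated data. Counts of members stand beside the share over all genes of a class, with no test.

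The members, lists and naming rule were chosen with earlier results of these data known. The rule named members with a REXO4 peak, the 10 of highest RNaseH1 fold, those with several peaks of which at least 1 met a snoRNA, the 4 with the most snoRNAs, GAS5, ZFAS1, DANCR, members without a peak, and up to 4 genes per list. Other genes were named after their values were seen. Tables were made in Python 3.11.15 with pandas 2.3.3, SciPy 1.17.1 and NumPy 2.4.6, and plots with matplotlib 3.10.9.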

Additional observations from a re-analysis of the deposited data

How the results depend on the processing

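No paired analysis was possible because the files hold 1 peak list per protein and no value per library. Nor could a replicate be left out. Of 39 alternatives over 11 results, 9 gave 0 where 0 was reported (REXO4 peaks over a snoRNA, and peaks of either list over a snoRNA and away from boundaries). Another 26 stayed within 1.5 times the reported count or, for the median of the highest folds, between 3.01 and 3.1. Counted without the 1 kb around the gene, 1 member had a REXO4 peak and 1 REXO4 peak row lay over members, since the peak at SNHG10 lies outside the gene. With peaks counted within 250 bp of a snoRNA, 9 RNaseH1 peaks met one, and with the summit required within the snoRNA, 0 did. Members with an RNaseH1 peak numbered 27 at a q of 1e-05 or less and 31 with 2.5 kb around the gene. At a q of 1e-05 or less, 32 of the 47 RNaseH1 peaks over members remained. The peaks rest on unknown libraries, and a gene without a peak may lack one for want of depth.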

Other observations

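Away from the members, RNaseH1 peaks touched few snoRNA genes. Of 307 snoRNA genes that lie in no protein-coding or lncRNA gene, 8 (2.61%) were touched by an RNaseH1 peak. Among them were SNORD3A, SNORD3B-2, SNORD3C and SNORD3D, copies of the U3 gene, and SNORD13, the U13 gene. The U3 copies are near-identical in sequence. Of 606 snoRNA genes inside protein-coding genes, 8 (1.32%) were touched, including SNORD118, the U8 gene. Of 131 inside other lncRNA genes, 0 were. REXO4 peaks touched 0 of all 1193 snoRNA genes. These counts were made after the member values were seen and were not tested.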
